A study of Mus musculus with 8 samples.

Results

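The genes studied here encode the insulin-like growth factor (IGF) system of stromal cells: the ligand Igf1, the receptors Igf1r and Igf2r, and the binding proteins Igfbp2, Igfbp3, Igfbp4, Igfbp5, Igfbp6 and Igfbp7. They were chosen by name, as the probe sets that carry these symbols alone in the array's annotation, which gave 9 of the 18194 named genes and 26 of 45101 probe sets. Igf1 had 4 probe sets, Igf1r 5, Igf2r 2, Igfbp2 1, Igfbp3 2, Igfbp4 6, Igfbp5 2, Igfbp6 1 and Igfbp7 3, and 1 further probe set shared by Igf2r and Airn was not used. Expression was measured on Affymetrix mouse arrays in 4 groups with 2 arrays each, which the labels call biological replicates. The first group is the OP9 line, labelled mouse bone marrow stroma of strain B6C3F1, after growth in contact with 230-238 cells, a mouse pre-B cell line, and sorted away from them. The second is OP9 cells alone, which the methods describe as kept in medium conditioned by such a co-culture. The other groups are MC3T3, an osteoblast-like line, and NIH3T3, an embryonic fibroblast line, both labelled Balb/c. In the paper, the OP9 cells of the co-culture and of its control carried a red fluorescent marker, mStrawberry, brought in by a virus. The sample titles say only OP9, so they do not settle whether both OP9 groups carried it. OP9 cells were maintained in OptiMEM, whereas MC3T3 and NIH3T3 cells grew in Dulbecco's medium. Line, strain, marker and medium therefore cannot be told apart in a comparison between lines. One MC3T3 array is described as sorted cells and the other as a culture. Each line is a single line, and the p-values measure the spread between arrays.

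In the IGF system, the secreted ligands bind the IGF1 receptor, a tyrosine kinase that acts through insulin receptor substrates to promote growth and survival, while the IGF2 receptor takes ligand into the cell for breakdown and has no kinase of its own. Binding proteins hold the ligands in the extracellular fluid and release them when proteases cut them. In bone marrow, IGF1 made by stromal cells is known as a factor that acts on B cell progenitors.

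The stretches of genome just upstream of the start sites are shown for the 4 IGF genes with the largest differences between OP9 and NIH3T3 cells, Igf1, Igfbp6, Igfbp7 and Igf1r, since these genes carry the results below. The sequences are the 250 bases before the annotated start of the gene in RefSeq (mouse build GRCm38.p6), on the strand of the gene and 5′ to 3′, and capitals mark the CG dinucleotides. All 9 genes had such a window.
Igf1, chr10:87860861-87861110, plus strand: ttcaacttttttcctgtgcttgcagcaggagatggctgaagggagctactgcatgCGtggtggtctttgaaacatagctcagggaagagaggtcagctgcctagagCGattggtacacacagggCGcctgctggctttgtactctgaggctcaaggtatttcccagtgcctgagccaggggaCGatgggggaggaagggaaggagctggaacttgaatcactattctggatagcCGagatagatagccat
Igfbp6, chr15:102143936-102144185, plus strand: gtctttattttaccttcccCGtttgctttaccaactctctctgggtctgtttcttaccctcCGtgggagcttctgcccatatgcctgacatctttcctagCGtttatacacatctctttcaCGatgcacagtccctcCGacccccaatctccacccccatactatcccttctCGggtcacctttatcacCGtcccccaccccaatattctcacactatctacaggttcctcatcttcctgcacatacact
Igfbp7, chr5:77408046-77408295, minus strand: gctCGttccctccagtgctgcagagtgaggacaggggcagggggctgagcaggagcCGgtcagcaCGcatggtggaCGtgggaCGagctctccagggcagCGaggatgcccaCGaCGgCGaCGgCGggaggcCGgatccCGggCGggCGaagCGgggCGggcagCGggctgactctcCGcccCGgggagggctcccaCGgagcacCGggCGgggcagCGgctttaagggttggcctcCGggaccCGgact
Igf1r, chr7:67952007-67952256, plus strand: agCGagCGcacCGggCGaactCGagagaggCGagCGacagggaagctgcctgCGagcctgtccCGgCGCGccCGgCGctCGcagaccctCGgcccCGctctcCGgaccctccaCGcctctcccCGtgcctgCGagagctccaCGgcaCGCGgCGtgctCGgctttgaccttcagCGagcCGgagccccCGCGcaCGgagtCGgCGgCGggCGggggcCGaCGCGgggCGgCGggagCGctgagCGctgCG
The Igf1 and Igfbp6 windows held 5 and 7 CG dinucleotides, close to the median of 6 over all 32851 windows of this length. The Igfbp7 and Igf1r windows held 26 and 42, and 90.4% and 99.1% of all windows held fewer. Of 3 promoter motifs searched on both strands, TATAAA occurred once upstream of Igfbp6, CCAAT once upstream of Igf1 and 2 times upstream of Igfbp6, and GGGCGG, which includes a CG, 4 times upstream of Igfbp7 and 2 times upstream of Igf1r. Over all windows, 12.4% held TATAAA, 33.8% CCAAT and 32.7% GGGCGG. These matches describe the letters of the windows and were not set against the expression values by a test.

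For each gene the probe set of highest mean intensity was taken, and 7 of the 9 IGF genes had at least 100 intensity units on at least 2 arrays and were tested together with all other such genes, 10084 in all. Differences were fitted with limma on the log2 scale, and a call required both a difference of 2-fold or more and an adjusted p under 0.05. A gene that passed the level of 100 through 1 group alone had to differ from the other groups, and where a group lay under 100 units a fold is set against a signal near the bottom of the scale. In OP9 cells with 230-238 over OP9 cells, 1 IGF gene was called, Igf1, which was lower, whereas calls made up 5.67% of the genes tested, with 2.71% higher in co-culture and 2.97% lower. In OP9 over NIH3T3 cells, 2 IGF genes were called higher and 3 lower, against 20.5% and 10.3% of all genes. In OP9 over MC3T3 cells, 3 were called higher and 2 lower, against 10.5% and 9.41%, and in MC3T3 over NIH3T3 cells 2 were called higher and 3 lower, against 17.8% and 9.65%. The median log2 difference of the 7 IGF genes was 0.10 in co-culture, where that of all genes was -0.05. It was -0.06 in OP9 over NIH3T3, -0.14 in OP9 over MC3T3 and -0.12 in MC3T3 over NIH3T3 cells, where all genes had medians of 0.16, 0.03 and 0.12. The same 2 OP9 arrays enter 3 of these comparisons, and the levels of all 9 genes are plotted by array.

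**Figure D1:**
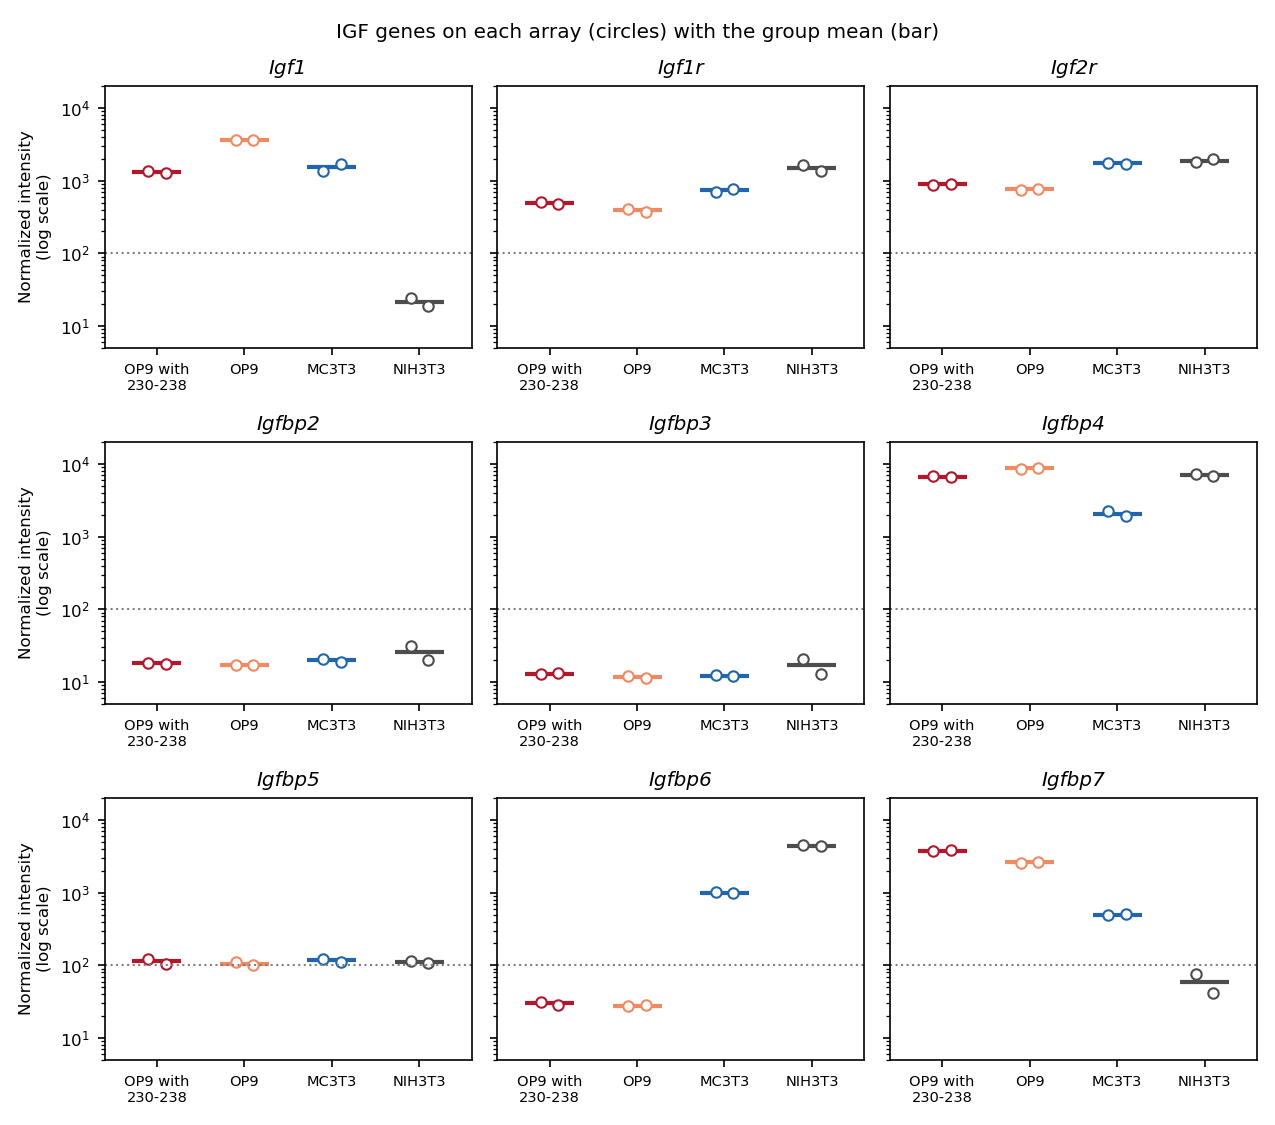
Normalized intensity (log scale) of the 9 IGF genes on the 2 arrays of each group (circles) with the group mean (bar), by the probe set with the highest mean of each gene, and the filter level of 100 (dotted line). Igf1 and Igfbp7 were high on the OP9 arrays and under 100 on the NIH3T3 arrays, Igfbp6 was under 100 on the OP9 arrays and at 4478 and 4346 on the NIH3T3 arrays, and Igfbp2 and Igfbp3 stayed under 100 on all 8 arrays.

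Igf1, the ligand of the IGF1 receptor, was lower in OP9 cells after contact with pre-B cells, and its signal was high in OP9 and MC3T3 cells and near the bottom of the scale in NIH3T3 cells. Its probe set with the highest mean (1437401_at, gene on chromosome 10) gave 1373 and 1259 units in OP9 cells with 230-238, against 3627 and 3623 in OP9 cells. The arrays of these groups did not overlap, and Igf1 was 2.76-fold lower in co-culture (log2 difference -1.46, 95% confidence interval -1.79 to -1.13, limma adjusted p = 0.000196). In MC3T3 cells the values were 1375 and 1690, and in NIH3T3 cells 24.5 and 18.9. The order of the levels was therefore OP9, MC3T3, co-cultured OP9 and NIH3T3 cells. The lower of the MC3T3 arrays stood next to the higher of the co-culture arrays, and that pair of groups was not tested. Igf1 in OP9 cells exceeded that in NIH3T3 cells 168-fold (log2 difference 7.40, interval 7.07 to 7.73, adjusted p = 6.8e-09) and in MC3T3 cells it exceeded NIH3T3 cells 70.8-fold (6.15, interval 5.82 to 6.48). The NIH3T3 values lie near the bottom of the scale, and with a pseudocount of 16 the log2 differences were 6.60 and 5.36. In OP9 over MC3T3 cells, the difference was 2.38-fold (log2 difference 1.25, interval 0.92 to 1.58, adjusted p = 0.000132).

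The 4 probe sets of Igf1 gave the same direction in co-culture with different sizes. Fitted one by one among all 18720 probe sets past the filter, of which 2.93% were called lower, all 4 were called lower in OP9 cells with 230-238 than in OP9 cells, by 2.55-fold to 3.76-fold. Probe sets of a gene read the same RNA and are not replicates. All 4 were also called higher in OP9 over NIH3T3 cells, by 25.4-fold to 168-fold, in a comparison where 20.8% of probe sets were. Between OP9 and MC3T3 cells the probe sets differed, since 1437401_at and 1452014_a_at were called higher in OP9 cells, whereas 1419519_at and 1434413_at were 1.69-fold and 1.64-fold higher and so under the 2-fold limit. With the mean of its probe sets, Igf1 was 0.94 higher on the log2 scale in OP9 than in MC3T3 cells and was no longer called. The genes whose centred log2 values over the 8 arrays were most like those of Igf1 were Eya4 and Pdk4, with root mean square differences of 0.49 and 0.51.

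Igf2, the other ligand of the family, was also lower in co-culture. It gave 168 and 205 units in OP9 cells with 230-238, against 371 and 436 in OP9 cells, and was called 2.16-fold lower (log2 difference -1.11, interval -1.41 to -0.82, adjusted p = 0.000387). MC3T3 cells had 65.6 and 58.2 units and NIH3T3 cells 101 and 94.3. OP9 cells were above both lines, by 6.51-fold over MC3T3 and 4.12-fold over NIH3T3 cells, and both differences were called. A second Igf2 probe set, with group means of 12.7 to 14.4 units, was below the filter. Of the insulin genes, Ins2 stayed between 87.4 and 131 units with no call in any comparison, and Ins1 was not analysed here.

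Igf1r, the signalling receptor, had its highest level in NIH3T3 cells and its lowest in OP9 cells. The probe set 1452982_at (gene on chromosome 7) gave 513 and 471 units in OP9 cells with 230-238, against 409 and 370 in OP9 cells, and 693 and 771 in MC3T3 cells, against 1652 and 1371 in NIH3T3 cells. The 4 groups did not overlap with each other. The co-culture difference was 1.26-fold (log2 difference 0.34, interval 0.08 to 0.60, adjusted p = 0.0436) and under the 2-fold limit, in a comparison where 16.6% of all genes were higher at this adjusted p. OP9 cells were 3.87-fold below NIH3T3 cells in Igf1r, which was called (-1.95, interval -2.21 to -1.69, adjusted p = 1.9e-06). It was 1.88-fold lower in OP9 than in MC3T3 cells, just under the limit, while 2 of its other probe sets, 1426565_at and 1428967_at, were called lower by 2.11-fold and 2.32-fold, as were 9.7% of all probe sets. A further probe set, 1446303_at, under 100 in both lines, differed by 1.02-fold (log2 difference -0.03, interval -0.33 to 0.28, adjusted p = 0.87). MC3T3 cells were 2.06-fold lower than NIH3T3 cells, just past the limit. That call was lost without the first NIH3T3 array (log2 difference -0.91) or without the first MC3T3 array (-0.96), with adjusted p-values that stayed below 0.05. The genes most like Igf1r were Pabpc4 and Rbm38, with root mean square differences of 0.111 and 0.123.

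Igf2r, the scavenger receptor for IGF2 that also carries lysosomal enzymes, was lower in OP9 cells than in either other line. Its values (1424112_at, gene on chromosome 17) were 873 and 902 units in OP9 cells with 230-238, against 754 and 764 in OP9 cells, and 1755 and 1715 in MC3T3 cells, against 1781 and 2000 in NIH3T3 cells. OP9 arrays lay below all others. Igf2r was called lower in OP9 cells by 2.49-fold against NIH3T3 cells (log2 difference -1.31, interval -1.49 to -1.13, adjusted p = 2.0e-06) and by 2.29-fold against MC3T3 cells (-1.19, interval -1.37 to -1.01, adjusted p = 5.3e-06). MC3T3 and NIH3T3 cells, neighbours in the order, differed by -0.12 (interval -0.30 to 0.06, adjusted p = 0.183). The co-culture difference was 1.17-fold (0.23, interval 0.05 to 0.40, adjusted p = 0.0473), under the 2-fold limit. The other probe set, 1424111_at, was 2.23-fold below MC3T3 cells and 1.97-fold below NIH3T3 cells in OP9 cells. Orc3 and Vbp1 were most like Igf2r, with root mean square differences of 0.059 and 0.065.

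**Figure D2:**
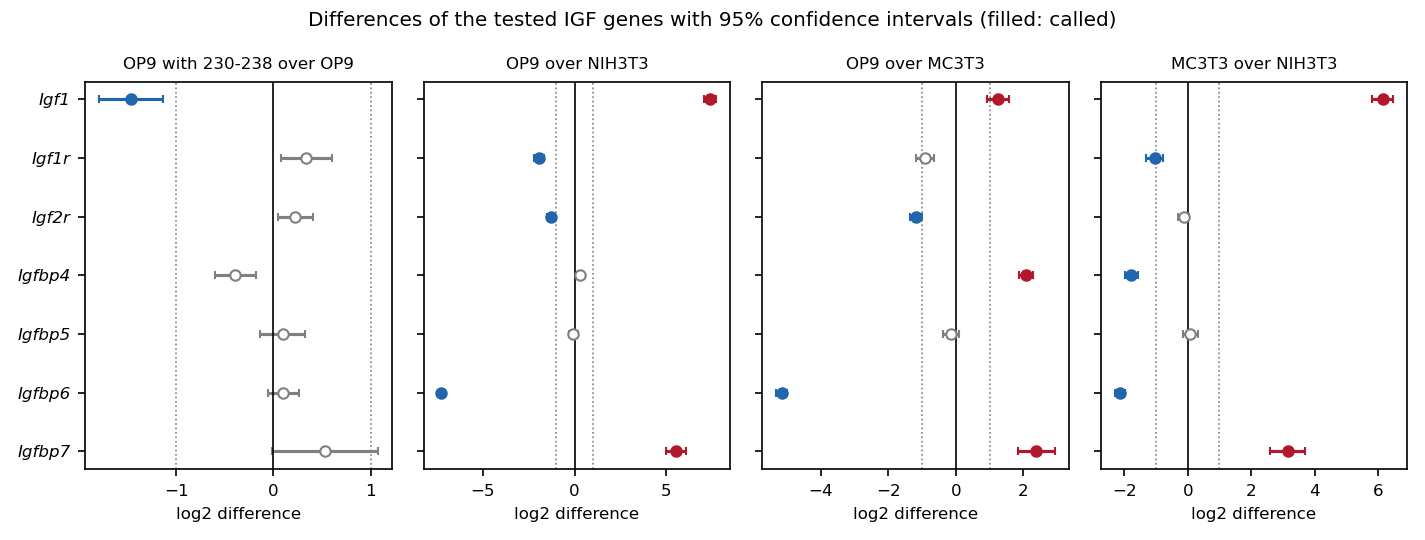
Log2 differences (horizontal axis) of the 7 tested IGF genes in the 4 comparisons with 95% confidence intervals, filled where called (red higher, blue lower) and open where not, and dotted lines at 2-fold. In co-culture Igf1 alone, at -1.46, was past the dotted line, whereas Igf1 at 7.40 and Igfbp6 at -7.30 stood at opposite ends in OP9 over NIH3T3 cells.

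Igfbp4, a binding protein that holds IGF1 away from its receptor, was higher in OP9 than in MC3T3 cells by every probe set. Its values (1437405_a_at, gene on chromosome 11) were 6762 and 6560 units in OP9 cells with 230-238, against 8613 and 8905 in OP9 cells, and 2229 and 1915 in MC3T3 cells, against 7374 and 6781 in NIH3T3 cells. OP9 cells were highest and MC3T3 cells lowest, with no overlap. Igfbp4 was called 4.24-fold higher in OP9 than in MC3T3 cells (log2 difference 2.08, interval 1.87 to 2.30, adjusted p = 6.5e-07) and 3.42-fold lower in MC3T3 than in NIH3T3 cells (-1.78, interval -1.99 to -1.56). OP9 and NIH3T3 cells differed by 1.24-fold (0.31, interval 0.10 to 0.52, adjusted p = 0.0145), which was not called. In co-culture Igfbp4 was 1.31-fold lower (-0.39, interval -0.61 to -0.18, adjusted p = 0.0103), also under the 2-fold limit, and 26.2% of all genes were lower at an adjusted p below 0.05. All 6 probe sets were lower in co-culture by 1.23-fold to 1.94-fold, each with an adjusted p below 0.05, a level that 23.3% of all probe sets passed as lower. All 6 were called higher in OP9 than in MC3T3 cells, by 4.20-fold to 7.77-fold, where 10.4% of all probe sets were. All 6 are of the _a_at, _s_at or _x_at kinds, which can bind more than 1 transcript. Lyplal1 and Sdc1 were most like Igfbp4, with root mean square differences of 0.095 and 0.137.

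Igfbp7, a secreted protein related to the IGF binding proteins that binds IGFs only weakly, followed a graded order over the groups, with co-cultured OP9 cells highest and NIH3T3 cells lowest. The probe set 1423584_at (gene on chromosome 5) gave 3690 and 3826 units in OP9 cells with 230-238, against 2558 and 2654 in OP9 cells, and 491 and 510 in MC3T3 cells, against 76.0 and 41.7 in NIH3T3 cells. The 4 groups did not overlap. OP9 cells were 46.3-fold above NIH3T3 cells (log2 difference 5.53, interval 4.99 to 6.08, adjusted p = 3.7e-07) and 5.21-fold above MC3T3 cells (2.38, interval 1.84 to 2.93, adjusted p = 5.8e-05), and MC3T3 cells were 8.88-fold above NIH3T3 cells, all called. The co-culture difference was 1.44-fold (0.53, interval -0.02 to 1.07, adjusted p = 0.109) and not called. Its standard error came from a spread that all groups share, and the NIH3T3 arrays differed from each other more than those of any other group for this gene. Without either NIH3T3 array the adjusted p was 0.000253 at the same fold. With the mean of the 3 probe sets of Igfbp7 the differences were smaller and still called, with log2 values of 2.24 in OP9 over NIH3T3, 1.12 in OP9 over MC3T3 and 1.12 in MC3T3 over NIH3T3 cells. Of the other probe sets, 1437804_at read 104 to 153 units on all arrays and was called in no comparison, and 1423585_at was below the filter with means of 69.7 in co-cultured OP9, 60.6 in OP9, 25.4 in MC3T3 and 20.7 in NIH3T3 cells, the same order as the first. Snai2 and Rtl8c were most like Igfbp7, with root mean square differences of 0.20 and 0.33.

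Igfbp6, a binding protein with a preference for IGF2, was highest in the fibroblast line and gave little signal in OP9 cells. Its only probe set (1417933_at, gene on chromosome 15) gave 31.1 and 28.9 units in OP9 cells with 230-238, against 27.6 and 28.3 in OP9 cells, and 1013 and 991 in MC3T3 cells, against 4478 and 4346 in NIH3T3 cells. Both OP9 groups were under 100, and their difference of 0.10 (interval -0.06 to 0.27, adjusted p = 0.278) was not called. For Igfbp6, OP9 cells were 158-fold below NIH3T3 cells (log2 difference -7.30, interval -7.46 to -7.14, adjusted p = 6.6e-10), and 35.9-fold below MC3T3 cells (-5.16, interval -5.32 to -5.00), and MC3T3 cells were 4.40-fold below NIH3T3 cells (-2.14, interval -2.30 to -1.98), all of which were called. As for Igf1, the low side of the larger folds lay near the bottom of the scale, and the difference from NIH3T3 cells was -6.65 with a pseudocount of 16. The genes most like Igfbp6, Ndrg1 and Car9, were less close, with root mean square differences of 0.64 and 0.78.

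Igfbp5, a binding protein found in bone matrix, had probe sets that disagreed. The one with the higher mean (1422313_a_at, gene on chromosome 1) read 123 and 104 units in OP9 cells with 230-238, against 110 and 102 in OP9 cells, and 121 and 112 in MC3T3 cells, against 114 and 107 in NIH3T3 cells, with overlap of most groups and no call. The other, 1452114_s_at, read 10.9 and 10.2 units in OP9 cells with 230-238, against 11.0 and 11.9 in OP9 cells, and 127 and 115 in MC3T3 cells, against 12.1 and 9.44 in NIH3T3 cells. By this probe set, singled out after its values were seen, Igfbp5 passed 100 units in MC3T3 cells only, and it was called 10.5-fold lower in OP9 than in MC3T3 cells (log2 difference -3.40) and 11.3-fold higher in MC3T3 than in NIH3T3 cells (3.50), where 18.5% of probe sets were called higher. It passed the filter through MC3T3 cells alone and the other side of both folds was 9.44 to 12.1 units, so their size rests on signals near the bottom of the scale. Which probe set reads the Igfbp5 transcript better was not tested. Mapk8ip2 and Tff1 were most like the first probe set, each with a root mean square difference of 0.048, so this likeness is one between genes with a flat signal. Igfbp2, on chromosome 1, read 17.2 to 31.3 units and Igfbp3, on chromosome 11, 8.56 to 21.0 units over both probe sets, and neither was tested.

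**Figure D3:**
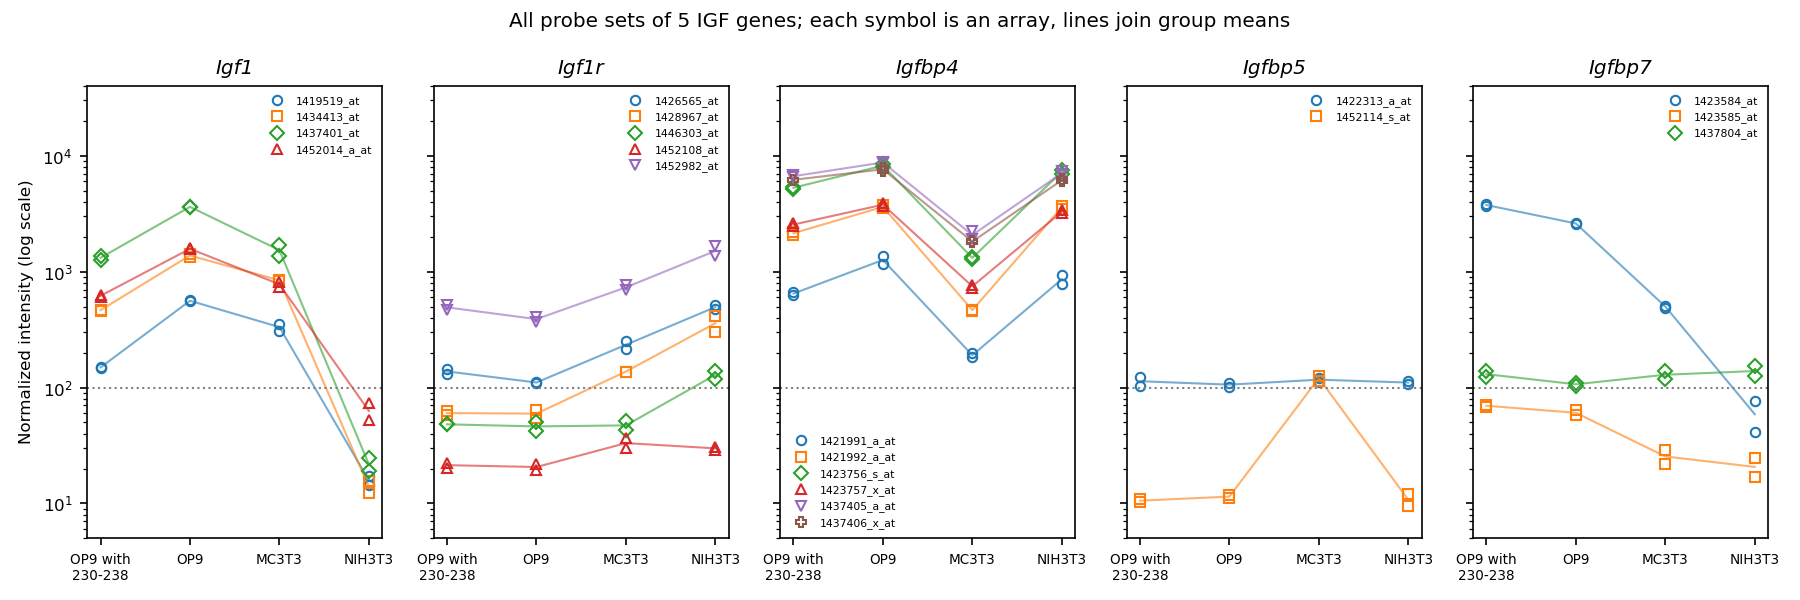
Normalized intensity (log scale) of every probe set of Igf1, Igf1r, Igfbp4, Igfbp5 and Igfbp7, with a symbol for each array, lines through the group means and the filter level of 100 (dotted). The 4 Igf1 and 6 Igfbp4 probe sets were all lower in co-cultured OP9 than in OP9 cells, whereas those of Igfbp5 and of Igfbp7 followed different orders over the lines.

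Among the other genes of the family, Igfals, which encodes the acid-labile subunit that stabilizes IGF complexes with binding proteins, was called higher in co-culture. It gave 214 and 209 units in OP9 cells with 230-238, against 109 and 97.1 in OP9 cells, and 40.7 and 40.5 in MC3T3 cells, against 60.6 and 35.1 in NIH3T3 cells. The co-culture arrays lay above all others, and the 2.06-fold difference (log2 difference 1.04, interval 0.53 to 1.55, adjusted p = 0.00693) was called, just past the limit. Outside co-culture only the OP9 array at 109 units reached 100, so Igfals passed the filter through the co-culture arrays, where it is high. Igfals was also called higher in OP9 than in MC3T3 cells by 2.53-fold and than in NIH3T3 cells by 2.23-fold, with the lower side under 100 units. Insr, the insulin receptor, had means of 256 units in OP9 cells with 230-238 and 201 in OP9 cells, and of 263 in MC3T3 and 337 in NIH3T3 cells, and was called in no comparison. Igfbp1, Igfbpl1 and Insrr were below the filter. Igf1, Igf2 and Igfals, with the proteases and growth hormone genes described next, are plotted for OP9 cells with and without 230-238 cells.

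**Figure D4:**
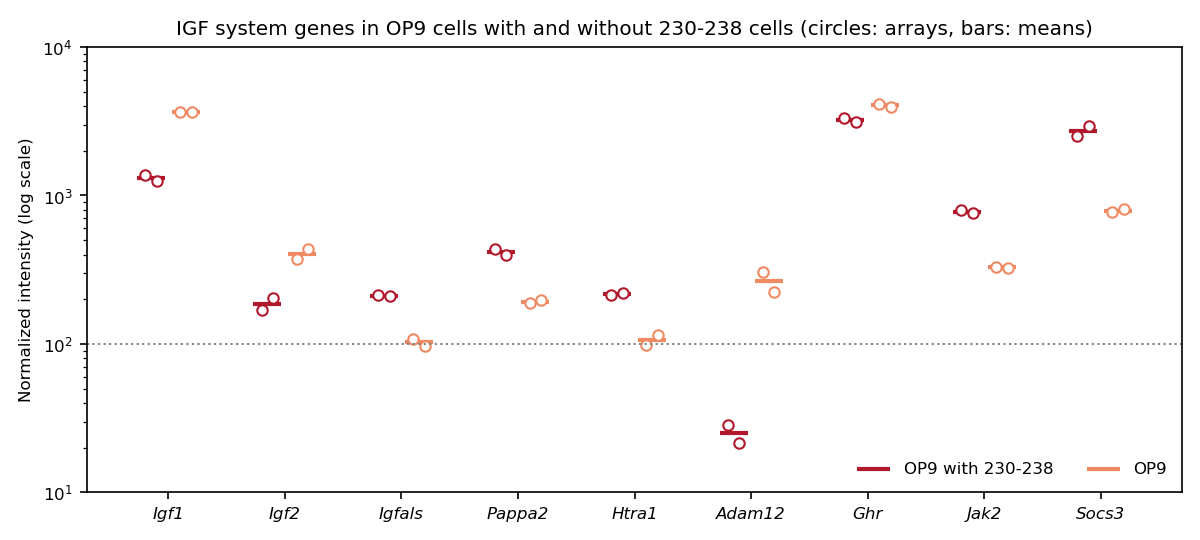
Normalized intensity (log scale) of 9 IGF system genes on the 2 arrays (circles) of OP9 cells with 230-238 (dark red, left of each pair) and OP9 cells (orange, right), with group means (bars) and the filter level of 100 (dotted). Igf1, Igf2 and Adam12 were called lower in co-culture, Igfals, Pappa2, Htra1, Jak2 and Socs3 were called higher, and Ghr, at 1.25-fold lower, was not called.

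Proteases that cut the binding proteins, with their inhibitors and other proteins that handle IGFs, made a list of 15 tested genes. In co-culture 2 were called higher and 1 lower, where 2.71% and 2.97% of all genes were, with a median log2 difference of -0.07. Adam12, a metalloprotease that cuts IGFBP3 and IGFBP5, gave 28.3 and 21.7 units in OP9 cells with 230-238, against 306 and 223 in OP9 cells, and was 10.5-fold lower (log2 difference -3.40, adjusted p = 2.6e-05). It reached 100 in OP9 cells alone, with means of 36.1 units in MC3T3 and 19.3 in NIH3T3 cells, so that all its folds are set against low signals. Pappa2, a protease of IGFBP5 and IGFBP3, was 2.15-fold higher, at 434 and 396 units in co-culture, against 188 and 198 in OP9 cells. Htra1, a serine protease, was 2.05-fold higher, at 215 and 221 units in co-culture, against 98.5 and 115 in OP9 cells. Pappa, the protease of IGFBP4, was 1.88-fold lower in co-culture and so not called. In OP9 over NIH3T3 cells 4 genes of the list were called higher (20.5% of all genes), Adam12, Pappa2, Pappa and Adam9, by 13.7-fold, 6.16-fold, 4.02-fold and 2.96-fold, and Htra1 was called 5.01-fold lower (10.3% of all genes). In OP9 over MC3T3 cells Pappa and Adam12 were 8.91-fold and 7.25-fold higher and Htra1 2.75-fold lower, and these were the only calls, where 10.5% of all genes were called higher and 9.41% lower. In MC3T3 over NIH3T3 cells Pappa2 and Adam9 were 12.2-fold and 3.73-fold higher and Pappa 2.22-fold lower, with 17.8% and 9.65% of all genes called higher and lower, and Pappa2 stood at 25.3 and 38.6 units in NIH3T3 cells. The medians of the list in these comparisons were 0.17, 0.12 and 0.02.

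The growth hormone axis, which drives Igf1 in liver and other tissues, was represented by 9 tested genes. In co-culture 2 were called higher, Socs3 by 3.43-fold and Jak2 by 2.36-fold, and 0 lower, where 2.71% and 2.97% of all genes were, with a median of 0.13. Socs3, a feedback inhibitor of cytokine receptors, had 2517 and 2925 units in OP9 cells with 230-238, against 772 and 812 in OP9 cells, and Jak2, the kinase of the growth hormone receptor, had 793 and 761, against 332 and 327. The receptor itself, Ghr, had 3334 and 3145 units in OP9 cells with 230-238 and 4134 and 3973 in OP9 cells, a 1.25-fold difference. Socs2, an inhibitor that growth hormone itself induces, was 38.8-fold above NIH3T3 cells in OP9 cells, and 4 of the 9 genes were called higher there, against 20.5% of all genes, with Ghr at 6.06-fold and Cish at 3.55-fold. In NIH3T3 cells Socs2 read 19.7 and 21.5 units and Cish 87.5 and 61.6, under the level of 100. In OP9 over MC3T3 cells 4 genes were called higher as well (10.5% of all genes), led by Socs2 (3.79-fold), Ghr (3.24-fold) and Cish (2.39-fold), and in MC3T3 over NIH3T3 cells Socs2 was 10.2-fold higher and Socs3 2.47-fold lower, the only calls, where 17.8% and 9.65% of all genes were called. The medians were 0.87 in OP9 over NIH3T3, 0.40 in OP9 over MC3T3 and 0.57 in MC3T3 over NIH3T3 cells.

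Of 27 tested genes that carry the signal from the IGF1 receptor, 1 was called in co-culture, where 5.67% of all genes were. Pik3r3, a regulatory subunit of phosphoinositide kinase, was 2.21-fold lower, at 492 and 505 units in OP9 cells with 230-238, against 1082 and 1117 in OP9 cells, and the median of the list was -0.15. In OP9 over NIH3T3 cells 4 were called higher and 8 lower, against 20.5% and 10.3% of all genes, with a median of -0.18. The docking protein Irs1 was 5.47-fold higher, the regulatory subunit Pik3r1 6.12-fold and the adaptor Shc1 2.73-fold higher. Grb10, an adaptor that restrains insulin and IGF1 receptors, gave 61.6 and 64.3 units in OP9 cells, against 3163 and 3094 in NIH3T3 cells, and was 49.7-fold lower, followed by Pik3cb and Eif4ebp1 at 3.98-fold and 3.80-fold lower. In OP9 over MC3T3 cells 1 gene was called in each direction, Grb14 4.65-fold higher and Eif4ebp1 2.64-fold lower, against 10.5% and 9.41% of all genes, with a median of 0.02. In MC3T3 over NIH3T3 cells 2 were called higher, Pik3r1 by 10.3-fold and Irs1 by 4.01-fold, and 7 lower, with Grb10, Grb14 and Rictor at 31.0-fold, 6.18-fold and 3.98-fold lower, against 17.8% and 9.65% of all genes, and the median was -0.15. Grb14 read 49.8 and 54.2 units in MC3T3 cells, so both of its folds are set against low signals. Pik3cb, at 119 and 153 units in NIH3T3 cells, and Irs2, at 166 and 149, passed the filter through that line alone. Grb10 reached the filter level on both arrays in NIH3T3 cells only, with MC3T3 cells at 98.0 and 104 units. These genes therefore had to be lower elsewhere, and their calls are among the 8 lower in OP9 over NIH3T3 cells. Grb10 and Irs2 are also among the 7 lower in MC3T3 cells, so neither count is a like-for-like match to its percentage.

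**Figure D5:**
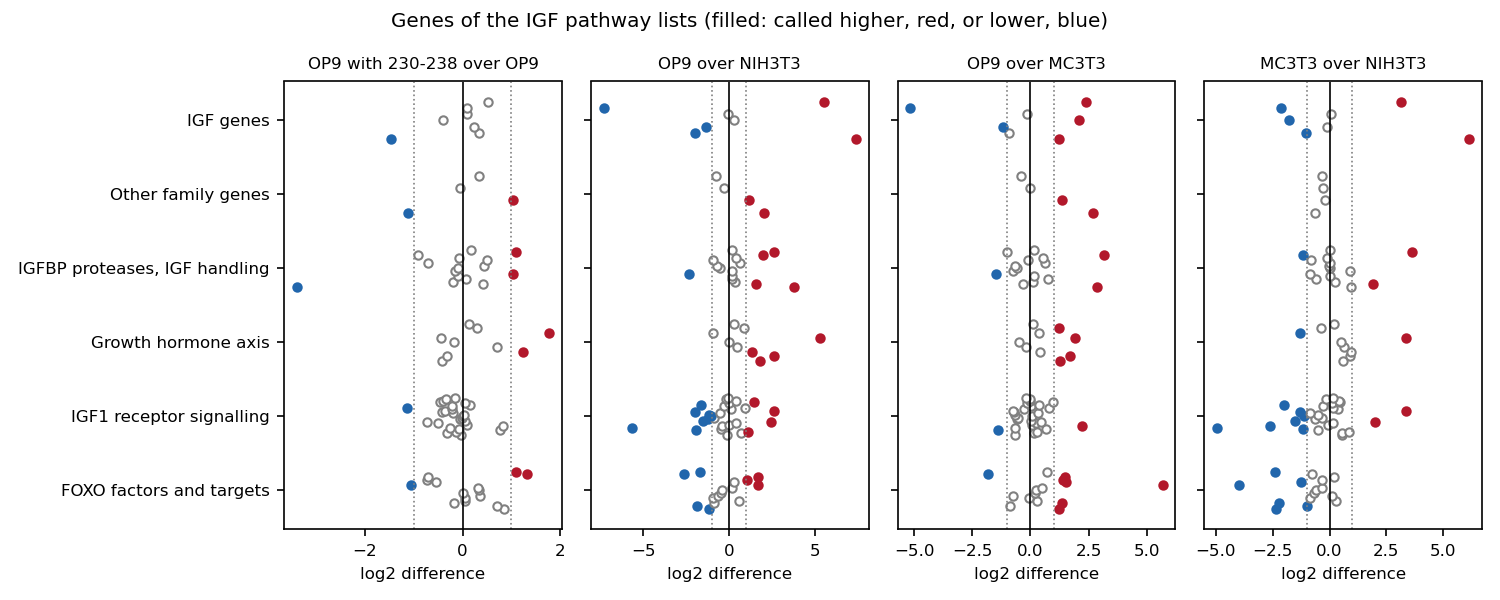
Log2 differences (horizontal axis) of the tested genes of 6 IGF pathway lists (vertical axis, a point for each gene) in the 4 comparisons, filled where called (red higher, blue lower) and open where not, with dotted lines at 2-fold. In co-culture 1 of 7 IGF genes and 1 of 27 receptor signalling genes were called, where 5.67% of all genes were. In OP9 over NIH3T3 cells 12 of these 27 were called, where 20.5% of all genes were called higher and 10.3% lower. Among these 12, Pik3cb and Irs2 passed the filter through NIH3T3 cells alone and so had to be lower in OP9 cells.

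Marker lists of other cell types went different ways in co-culture, where Igf1 was lower. Of 4 tested osteoblast markers 3 were called lower, Dmp1, Phex and Omd, with a list median of -1.29, where 2.97% of all genes were called lower. Dmp1 was under 100 units in both OP9 groups, and Omd passed the filter through OP9 cells alone. Of 7 tested fat cell markers 6 were called lower in OP9 cells with 230-238, where 2.97% of all genes were. Among them Cidec and Retn passed the filter through OP9 cells alone, so they had to differ from the other groups. The summed level of the 8 listed was 11256 to 11365 units in co-culture, against 35117 to 35172 in OP9 cells, with Adipoq at 358 and 337 units, against 10697 and 10639. The fat cell list summed to 173 to 192 units in MC3T3 cells, where Igf1 read 1375 and 1690, and to 4801 to 5064 units in NIH3T3 cells, where Igf1 read 24.5 and 18.9. Of 11 markers of pre-B and B cells, Spib alone reached 100 on both co-culture arrays, at 723 and 730 units, against 19.8 and 22.6 in OP9 cells. The paper reports more Spib message in sorted OP9 cells after such co-culture, also by quantitative PCR. The pre-B list, which includes Spib, summed to 1175 to 1180 units in co-culture, against 307 to 325 in OP9 cells. In NIH3T3 cells it summed to 565 to 577 units, with 2 of 11 genes at 100 or more on both arrays. Its defining genes Cd79a, Cd79b, Vpreb1, Pax5 and Rag1 were all under 100. Below that level Vpreb1 read 77.7 and 76.0 units in co-culture, against 25.8 and 21.6 in OP9 cells, and Pou2af1 36.0 and 33.8 units, against 8.07 and 7.95. Leukocyte markers summed to 574 to 595 units in co-culture, with 3 of 8 at 100 or more, against 276 to 282 units and 0 of 8 in OP9 cells. Of 3 tested, 2 were called higher in co-culture, Coro1a by 4.84-fold and Arhgdib by 2.43-fold, where 2.71% of all genes were. Coro1a passed the filter through the co-culture arrays alone, at 116 and 125 units, against 25.9 and 23.9 in OP9 cells. In NIH3T3 cells the leukocyte list summed to 290 to 416 units. In MC3T3 cells it summed to 3941 to 4176 units, with Arhgdib at a mean of 3830. Macrophage markers summed to 373 to 407 units in co-culture, against 398 to 431 in OP9 cells, and no endothelial marker reached 100 in any group. The part of these cells in the IGF results was not tested, and in such bulk samples fewer cells of a type and less RNA per cell cannot be told apart. As to the labels, Cxcl12, a stromal chemokine, read 18390 and 18257 units in OP9 cells with 230-238 and 19989 and 21062 in OP9 cells. Of the 7 tested marrow stroma markers, 1 was called lower in co-culture, where 2.97% of all genes were. This was Il7, at 76.4 and 70.8 units, against 325 and 283 in OP9 cells. Lepr, a further marker of that list, was under 100 in every group. Of 7 osteoblast markers 2 reached 100 on both MC3T3 arrays, with Dmp1 at 970 and 1142 units and Sp7, Alpl and Ibsp under 100. In OP9 cells 3 of these 7 did, so the count does not set MC3T3 cells apart. On the fibroblast side, 7 of 10 fibroblast markers were at 100 or more on both NIH3T3 arrays, among them Col1a2, Fn1 and Vim with means of 13662, 16678 and 15571 units, while Thy1, Dcn and Lum were under 100. The same count was 9 in MC3T3, 7 in co-cultured OP9 and 6 in OP9 cells, so it does not set NIH3T3 cells apart.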

How the data were processed

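The authors hybridized RNA of 8 cultures to Affymetrix Mouse Genome arrays and deposited, for 45101 probe sets, intensity values that are already normalized and not logged. For arrays, the methods mention dChip, RMA Express and affylmGUI. Which one produced the deposited values, and its settings, are not given in the sources used here. Array medians were 41.8 to 45.0 units, and 34.3 to 36.3% of probe sets reached 100. The number of arrays limits the precision.

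Probe sets were named through the platform annotation (34958 with 1 symbol, 932 with several and 9211 with none; those with several were not named). The deposited intensity was taken to log2 with no pseudocount, each gene took the probe set of highest mean log2 value, and a gene was kept if 2 or more arrays reached 100. Group means of all 4 groups were fitted with lmFit and eBayes of limma 3.58.1 in R 4.3.3, with 4 residual degrees of freedom, and the Benjamini-Hochberg adjustment was made within each comparison over 10084 genes. Calls needed 2-fold or more with an adjusted p under 0.05. The fit was tested on simulated data. Named genes were all IGF genes, the rest of the family, the called genes of each pathway list with the largest fold (at most 3 in each direction), a few others given for their role, and the 2 genes most like each tested IGF gene by the root mean square difference of centred log2 values over the 8 arrays. The IGF genes and the lists were chosen with earlier results of these data known.

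Alternatives were filters at none and at 200, scaling by quantiles or by medians, adding 16 before the log, fitting only the arrays compared, a prior with trend and robust estimation, the replicate number as a block, averaging a gene's probe sets, dropping _x_at and _s_at probe sets, testing probe sets singly, calling without a minimum fold, omitting each array in turn and, added after the data were seen, the other probe set of Igfbp5. Replicate numbers did not pair the arrays by the labels or by the data. Arrays of blood cells were not analysed here.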

Additional observations from a re-analysis of the deposited data

How the results depend on the processing

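The counts of IGF genes called stayed within 1.5 times those reported under every setting except no minimum fold, where 2 were higher and 2 lower in co-culture. Counts over all genes rose in 2 settings. With each probe set on its own, 455 were higher and 549 lower in co-culture, 3893 and 2214 in OP9 over NIH3T3, 1948 and 1816 in OP9 over MC3T3, and 3457 and 2112 in MC3T3 over NIH3T3 cells, since more features were tested. With no minimum fold, these were 1674 and 2640, 4659 and 3196, 3588 and 3125, and 4420 and 3122 genes. Igf1 kept its direction and its call in co-culture under all 21 alternatives, with log2 differences of -1.57 to -1.40. Its call in OP9 over MC3T3 cells was lost with the mean of the probe sets (0.94), a setting that also took Igfbp7 in OP9 over NIH3T3 cells to 2.24.

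Igf1r in MC3T3 over NIH3T3 cells was under 2-fold with median scaling (-0.95) and with the mean of the probe sets (-0.96), besides the arrays left out above. Igfbp5 changed sign where it was near 0. It was -0.011 in co-culture and 0.020 in OP9 over NIH3T3 cells with the mean of the probe sets, -0.042 in MC3T3 over NIH3T3 cells with quantile normalization, 0.0014 in OP9 over NIH3T3 cells with median scaling, and -0.031 without the first co-culture array. With its other probe set it was -0.12 in co-culture and 0.10 in OP9 over NIH3T3 cells, and it was called at -3.40 in OP9 over MC3T3 and at 3.50 in MC3T3 over NIH3T3 cells. In these last 2 comparisons its first probe set was at -0.14 and 0.08. The mean of the probe sets lies midway between the 2 values and so was past 2-fold there as well. Igf2r in MC3T3 over NIH3T3 cells was 0.026 with the mean of the probe sets. The cause was not tested. The median difference of all genes in OP9 over NIH3T3 cells was 0.16 as deposited, 0.016 after quantile normalization and 0.22 with median scaling.

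The deviations of arrays with the same number correlated at -0.00385 to 0.181, so the replicate numbers gave no pairing, and with the replicate block Igf1 in co-culture had an adjusted p of 0.000594 and the counts of IGF genes called stayed the same.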

Other observations

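Transcription factors that act at the Igf1 gene or mark mesenchymal cells that express it were followed as a list of 7 tested genes. Cebpa, a factor of fat cell differentiation, gave 719 and 709 units in OP9 cells with 230-238, against 1622 and 1663 in OP9 cells, and was called 2.30-fold lower (log2 difference -1.20, limma adjusted p = 0.000621). Cebpd, of the same family, was called 2.59-fold higher in co-culture, with means of 1299 units in OP9 cells with 230-238 and 502 in OP9 cells, and these were the only calls of the list, where 2.71% of all genes were called higher and 2.97% lower. In OP9 over NIH3T3 cells 4 were called higher, against 20.5% of all genes, with Cebpa at 48.0-fold, Ebf1 at 39.5-fold and Esr1 at 10.5-fold, and Cebpb and Nr3c1 were called lower, by 4.40-fold and 2.27-fold, against 10.3%. The NIH3T3 means of Cebpa, Ebf1 and Esr1 were 34.8, 52.1 and 34.2 units, so these folds are set against low signals. In OP9 over MC3T3 cells 4 were called higher and 0 lower, against 10.5% and 9.41% of all genes, led by Pparg (60.7-fold), Cebpa (49.2-fold) and Ebf1 (15.6-fold). The MC3T3 means of Pparg and Cebpa were 22.1 and 33.4 units, near the bottom of the scale, and that of Ebf1 was 130 units. In MC3T3 over NIH3T3 cells Ebf1 and Esr1 were called higher, by 2.53-fold and 2.14-fold, and Pparg and Cebpb lower, by 14.8-fold and 3.59-fold, where 17.8% and 9.65% of all genes were called. Esr1 was under 100 on all arrays of both lines, at 73.8 and 65.9 units in MC3T3 and 44.8 and 23.6 in NIH3T3 cells, and was tested only through the OP9 groups. The medians of the list were 0.03 in co-culture, 2.04 in OP9 over NIH3T3, 2.29 in OP9 over MC3T3 and -0.04 in MC3T3 over NIH3T3 cells.

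FOXO factors and genes listed as held down through them by IGF and insulin signalling formed a list of 15 tested genes. That control was not tested in these cells for any of them. In co-culture 2 were called higher, Trib3 by 2.51-fold and Txnip by 2.14-fold, and Gadd45a was called 2.07-fold lower, where 2.71% and 2.97% of all genes were called. In OP9 cells the stress gene Gadd45a was 3.28-fold above NIH3T3 cells and 51.4-fold above MC3T3 cells, where it read 73.9 and 68.5 units. In OP9 over NIH3T3 cells 3 were called higher and 4 lower (20.5% and 10.3% of all genes), in OP9 over MC3T3 cells 6 higher and 1 lower (10.5% and 9.41%), and in MC3T3 over NIH3T3 cells 0 higher and 6 lower (17.8% and 9.65%). Beside Gadd45a, which was 15.7-fold lower, Txnip and Bcl6 were 5.27-fold and 5.15-fold lower in MC3T3 than in NIH3T3 cells. The medians of the list were 0.06, -0.47, 0.50 and -0.78.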
